A study of Arabidopsis thaliana with 6 samples.

Results

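Splice junctions that share one end and differ by 4 or 5 bases at the other were examined in Arabidopsis seedlings with insertions in AtACINUS and AtPININ. The pairs were taken from tables of spliced reads. A pair is 2 junctions of the same gene between the same exons, with one end equal and the other end 4 or 5 bases apart. The junction with fewer reads over the 6 libraries (the lesser junction) needed 10 or more reads and the other junction 30 or more. The rule gave 582 pairs in 552 genes, out of 3415 junction pairs of any distance that met the same read minimums. Of the 582 pairs, 299 were 4 bases apart and 283 were 5 bases apart.

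The tested plants carried the genotype acinus-2 pnn, which combines a T-DNA insertion in an exon of AtACINUS (acinus-2) with a T-DNA insertion in AtPININ (named pinin-1 in the study's methods). They were set against wild-type (WT) plants, and all were 12-day-old light-grown Col-0 seedlings by the labels, while the study's methods give another age. Each genotype had 3 RNA-seq libraries, replicates 6, 7 and 12 of acinus-2 pnn and replicates 2, 4 and 5 of WT, and values of single libraries are given in that order. Each insertion is a single line, whole seedlings were used, and no label names separate cultures, so p-values measure the spread between these libraries.

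Splicing joins exons at a donor site, the start of the intron, which nearly always reads GT, and an acceptor site, its end, which reads AG. U1 snRNP recognises the donor, and the U2AF proteins recognise the acceptor. Where a second GT or AG lies a few bases away, the spliceosome can use either. A shift by a multiple of 3 keeps the reading frame in coding sequence, whereas a shift by 4 or 5 bases changes it, usually leads to an early stop codon, and can mark the mRNA for nonsense-mediated decay. ACINUS and Pinin are nuclear proteins that bind SR45 (the plant RNPS1) and SAP18 in complexes that sit on spliced RNA and influence splice site choice.

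The 6 pairs with the most reads on the lesser junction, the pairs with the highest shares, and a pair that DESeq2 called are shown as sequence, because the results below turn on them. Each run is 30 bases written 5′ to 3′ in the sense of the gene, from TAIR10.1 (RefSeq), with both candidate sites in capitals. In acceptor pairs the intron ends after the first or after the second AG. In donor pairs the intron starts at the first or at the second GT or GC.
AT2G19730, acceptors 4 bases apart, chr2:8511721-8511750, + strand: atttttggtgtggtgaAGgtAGgtatttga
PGLCT, acceptors 4 bases apart, chr5:5272877-5272906, + strand: aattacggttataaaaAGtcAGacaaaatg
AT5G46430, acceptors 4 bases apart, chr5:18833397-18833426, + strand: tttgttgattttgttgAGgaAGaggagtaa
RPS13A, acceptors 4 bases apart, chr4:37256-37285, + strand: tcgctatcatttatgtAGaaAGggtatttc
AGT, acceptors 5 bases apart, chr2:5540924-5540953, - strand: tttgtaagtttttgacAGtgtAGaggagga
AT1G69510, acceptors 5 bases apart, chr1:26126754-26126783, + strand: aacatacttttgttaaAGctcAGttatgga
SNL2, acceptors 5 bases apart, chr5:4865565-4865594, - strand: cttgtttgttttactcAGagcAGcaatgaa
AT2G15580, acceptors 5 bases apart, chr2:6798504-6798533, + strand: ttgcattcaatttttaAGttcAGgcaaaat
RBCS1A, donors 4 bases apart, chr1:25049063-25049092, - strand: ttaactgcatGCagGTcatttatatttctt
CLC-D, donors 5 bases apart, chr5:9194092-9194121, + strand: gtcaactagtGTaagGTctctagcttgctt

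Acceptors made up 367 of the 582 pairs and donors 215. Of the 299 pairs 4 bases apart, 175 were acceptors and 124 donors, and of the 283 pairs 5 bases apart, 192 were acceptors and 91 donors. Pairs 3 bases apart, which keep the frame, numbered 503, and 475 of them were acceptors. Pairs 6 bases apart numbered 177. All 582 pairs could be placed on the genome, and all had AG acceptors and GT or GC donors. The study's mapping for gene expression removed reads across non-canonical junctions. The lesser donor was a GC in 32 of the 215 donor pairs and the other donor in 12. Of the 552 genes, 523 held 1 pair, 28 held 2, and AT4G38950 held 3. Pairs of one gene share its RNA, and 12 of the 582 pairs shared a junction with another pair.

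**Figure D1:**
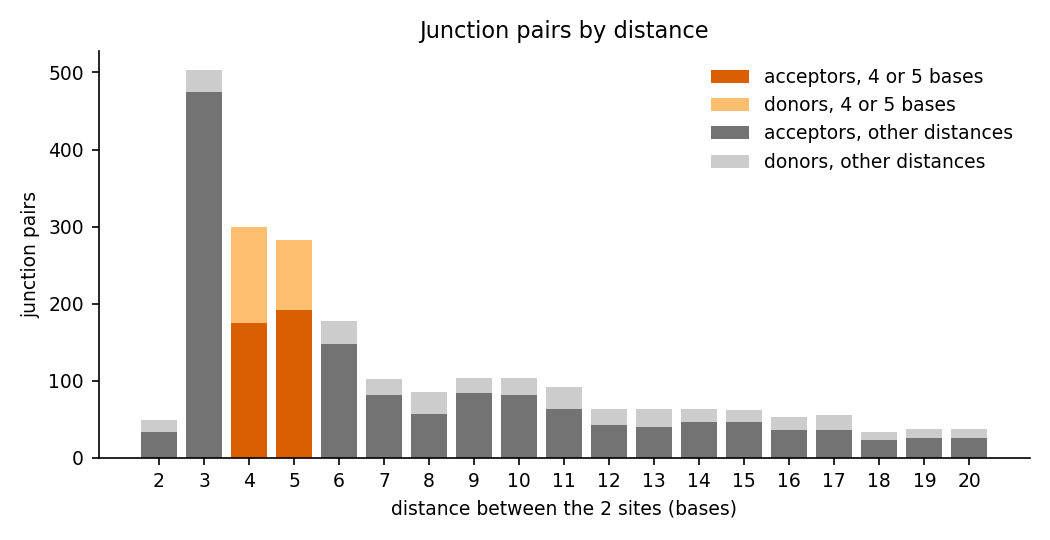
Number of junction pairs (vertical axis) by the distance between their sites in bases (horizontal axis), over the 6 libraries, with acceptors below donors in each bar. The pairs 4 and 5 bases apart (orange, 299 and 283) hold more donors, 124 and 91, than the 503 pairs 3 bases apart, of which 475 are acceptors.

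The letters between the sites fell into a few strings. Among acceptors 4 bases apart, AGACAG was found in 32, AGGAAG in 29, AGGCAG in 28 and AGGTAG in 21 of 175 pairs. Among acceptors 5 bases apart, AGTGCAG was found in 36 of 192. Among donors, GTAGGT made up 46 of the 124 pairs 4 bases apart and GTAAGGT made up 33 of the 91 pairs 5 bases apart. In both of these strings the upstream GT is followed by a purine, as in the plant donor consensus, and the downstream GT follows a G, as it does at most exon ends.

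The more used acceptor was preceded by C or T more often than the lesser one. At 5 bases, the other site read CAG in 125 and TAG in 55 of 192 pairs, and the lesser site read CAG in 84 and TAG in 67. The lesser site read AAG in 40 of the 192 pairs and the other site in 11. At 4 bases, the lesser site read AAG in 51 and the other site in 29 of 175 pairs. GAG was rare at both, with at most 5 of 175 lesser sites. Weight matrices built from all annotated introns scored the other site higher in 259 of 367 acceptor pairs and 145 of 215 donor pairs. These matrices were made from annotated introns, of which the other junctions are nearly all a part, so this is a description only.

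Most second sites in the genome did not reach the read minimum. Among 81825 introns with GT and AG whose junction in the deposited gene model had 30 or more reads, 25054 carried a second GT 4 bases downstream of the donor (30.6%, the letters GTNNGT), since the plant consensus GTAAGT contains it. Only 42 of these (0.168%) were pairs that met the read minimum with the junction of the gene model as the other junction. Pairs in which the junction of the gene model was the lesser one are not counted in this paragraph. A GT 4 bases upstream of the donor was present in 759 introns (0.928%), and 28 of them (3.69%) were pairs. A second AG 4 bases downstream of the acceptor (AGNNAG) was present in 5040 introns (6.16%), of which 119 (2.36%) were pairs. An AG 4 bases upstream was present in 176 introns (0.215%), of which 28 (15.9%) were pairs. At 5 bases the shares of introns with the second AG that were pairs were 2.23% downstream (93 of 4170) and 14.6% upstream (73 of 499). Upstream second acceptors were rarer in the genome, and a larger share of those present met the read minimum than of downstream ones, at both distances. A pair enters only with enough reads, so these shares depend on the RNA level of each gene.

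The lesser junction took a median of 10.2% of the reads of both junctions, averaged over the 6 libraries, with quartiles of 4.55% and 21.0%. The rule's read minimum sets how low this share can be in a gene with few reads. The share was 20% or more in 155 pairs and 40% or more in 36, and it was under 1% in 38. Lesser junctions annotated in RefSeq (129 of 582) had a median share of 20.04%, and those that were not (453) had 8.65%. The lesser junctions had between 10 and 1256 reads, with a median of 19, and 467 of the 582 pairs had 10 or more reads on both junctions together in each library. At the threshold, 44 pairs had exactly 10 lesser reads, with a median share of 5.26%, and 47 pairs that were left out had 9, with a median share of 3.89%.

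Shares differed with the direction of the shift. Among acceptors, lesser sites upstream of the other site had median shares of 13.5% at 4 bases (42 pairs) and 13.8% at 5 bases (89 pairs), and lesser sites downstream had 7.74% (133 pairs) and 10.02% (103 pairs). Among donors, the order was the opposite. Lesser donors downstream, within the intron, had median shares of 14.4% at 4 bases (66 pairs) and 11.8% at 5 bases (41 pairs), and those upstream, within the exon, had 8.12% (58 pairs) and 6.13% (50 pairs). At both ends, the lesser sites that lie in the intron of the other junction had the higher median shares. These medians over pairs carry no test. In each contrast the set with the higher median share also had fewer reads per pair. For acceptors, median reads were 201.5 upstream and 256 downstream at 4 bases, and 162 and 218 at 5 bases. For donors, they were 214.5 downstream and 248.5 upstream at 4 bases, and 196 and 303 at 5 bases. Fewer reads raise the lowest share that the read minimum allows, and the part of this limit in the differences was not tested.

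By the annotated transcripts, 467 of the 582 pairs lay in coding sequence, 93 in the 5′ UTR and 12 in the 3′ UTR, and 10 had no annotated coding transcript with either junction. In the 467 coding pairs, the lesser junction gave a shorter reading frame in 455 and a longer one in 12. The encoded protein had a median of 467 residues with the other junction and 206 with the lesser one. The stop codon of the lesser form lay more than 50 bases before the last exon junction in 413 of the 467, the position at which stop codons are known to trigger nonsense-mediated decay. The lesser junction was annotated in 67 of 93 pairs in the 5′ UTR and in 57 of 467 coding pairs.

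Shares were lower in coding sequence than in the 5′ UTR, in every library. To lower the effect of the read minimum, pairs with 200 or more reads were compared. The minimum of 10 lesser reads still limits how low their shares can be. Median reads per pair were 426 in coding sequence and 566 in the 5′ UTR. The median share of coding pairs (253) was 4.44, 3.66 and 4.14% in the acinus-2 pnn libraries and 3.23, 4.55 and 4.21% in the WT libraries. The median share of 5′ UTR pairs (39) was 10.5, 11.0 and 8.64% in acinus-2 pnn and 10.5, 10.6 and 10.6% in WT. The 5′ UTR median was higher in 6 of 6 libraries, by a mean of 6.27 percentage points (adjusted p = 0.0486, exact permutation by sign flips over the 6 libraries, 2-sided, adjusted over 14 such tests, where 0.0312 is the smallest unadjusted p that 6 libraries allow). The libraries read the same sites, so this p covers the spread between libraries and not the spread between sites.

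Pairs 3 bases apart, which keep the frame, had no gap that passed the test. With 200 or more reads, their 5′ UTR median (43 pairs) minus their coding median (218 pairs) ranged between -3.41 and 2.16 points over the 6 libraries (adjusted p = 0.707 by the same exact permutation test). The gap of the pairs 4 to 5 bases apart was larger than that of the pairs 3 bases apart in 6 of 6 libraries, by a mean of 6.70 points (adjusted p = 0.0486, exact permutation). In coding sequence alone, the median of the pairs 4 to 5 bases apart was lower than that of the pairs 3 bases apart by 4.95 to 8.03 points (adjusted p = 0.0486, exact permutation). Against the coding pairs 6 bases apart, the difference was only -0.78 to -0.09 points (adjusted p = 0.0486, exact permutation). Without the minimum of 200 reads, its mean was -0.57 points (adjusted p = 0.159, exact permutation). Pairs 6 bases apart also keep the frame. Their 5′ UTR median (16 pairs) was higher than their coding median (86 pairs) in 6 of 6 libraries, by a mean of 3.29 points (adjusted p = 0.0486, exact permutation). The gap of the pairs 4 to 5 bases apart was larger than theirs in 6 of 6 libraries, by a mean of 2.98 points (adjusted p = 0.0486, exact permutation, a test added after the data were seen). Without the minimum of 200 reads, the gap of the pairs 6 bases apart was above 0 in 5 of 6 libraries, with a mean of 7.04 points (adjusted p = 0.0875, exact permutation), and the gap of the pairs 4 to 5 bases apart was larger than it in 4 of 6 libraries, with a mean difference of -0.05 points (adjusted p = 0.969, exact permutation), so the difference from the pairs 6 bases apart was called only with the minimum. These p-values too cover the spread between libraries and not the spread between sites. Any difference of the same sign in 6 of 6 libraries reaches the smallest p, and the 14 tests share sites and libraries. Whether base composition or RNA level differs between coding and UTR pairs was not tested. With 200 or more reads, the lesser junction was annotated in 8.70% of coding and 71.8% of 5′ UTR pairs 4 to 5 bases apart. It was annotated in 60.1 and 74.4% of those 3 bases apart, and in 40.7 and 75% of those 6 bases apart. Median reads per pair, in the same order, were 429.5 and 461 at 3 bases and 566.5 and 384.5 at 6 bases. The part of annotation and of the read minimum in the gaps was not tested.

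**Figure D2:**
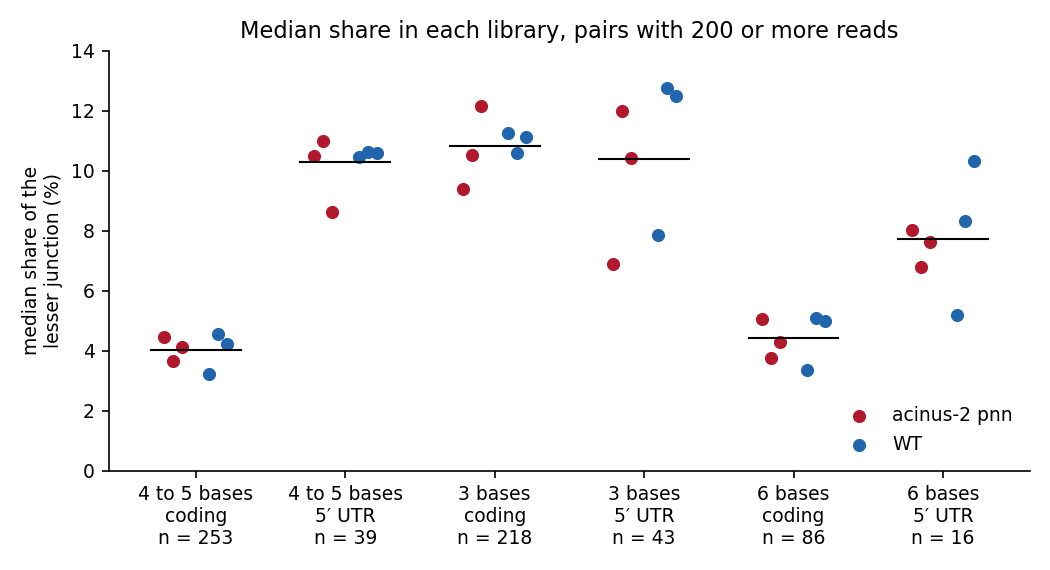
Median share of the lesser junction in each library (vertical axis, percent) for pairs with 200 or more reads, by distance and region (horizontal axis), with acinus-2 pnn libraries in red, WT libraries in blue and the mean of the 6 libraries as a line. The coding pairs 4 to 5 bases apart sit between 3.23 and 4.55% and the 5′ UTR pairs between 8.64 and 11.0%, and the genotypes overlap in each column.

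The comparison of the genotypes asked whether acinus-2 pnn seedlings chose between close sites differently from WT. Over the 582 pairs, the summary shares of the genotypes lay close together. The median share over pairs was 8.19, 9.09 and 8.47% in the acinus-2 pnn libraries and 8.11, 9.52 and 10% in the WT libraries, so the genotypes overlapped. The means of these medians were 8.59 ± 0.46% in acinus-2 pnn and 9.21 ± 0.98% in WT (SD, n = 3 each). With the reads of all pairs summed, the lesser junctions took 3.89, 4.05 and 3.93% in acinus-2 pnn and 4.23, 4.25 and 4.22% in WT, which did not overlap. RBCS1A alone holds 1135 of the summed lesser reads and 135860 of the summed reads on the other junctions. It had no lesser reads in acinus-2 pnn replicate 7, the library with the highest summed share of that genotype. No test was made of these summaries.

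No pair 4 to 5 bases apart changed by edgeR's quasi-likelihood test, in which the ratio of the 2 junctions was compared between genotypes over all 3415 pairs with Benjamini-Hochberg adjustment. The smallest adjusted p among the 582 was 0.693, and 0 of 3415 pairs were called (0%). At an unadjusted p under 0.05 there were 22 of the 582 pairs (3.78%), 10 higher and 12 lower in acinus-2 pnn, against 5.24% of all pairs. The study's rule is Fisher's exact test in each of the 9 comparisons of single libraries, with thresholds on fold and share. Applied here without the study's minimum on read density (RPKM), it called 0 of the 582 and 9 of all pairs (0.264%). DESeq2 called 1 of the 582, RPS13A, and 13 of the 2693 pairs with an adjusted p (0.483%), while 126 of the 582 had none. The median SE of the log2 ratio was 1.03 in the edgeR fit. The common dispersion of the fit over all pairs, a measure of the spread between libraries, was 0.19. The median of the dispersions fitted pair by pair was 0.1 over the 582 pairs. In simulated counts edgeR found 21 of 200 pairs changed 4-fold at a dispersion of 0.2 (3020 pairs) and 160 of 200 at a dispersion of 0.02 (3074 pairs). The changed pairs were drawn only from pairs with more lesser reads than the median of the 582 pairs, 19. At a dispersion of 0.2, near the common value, most of the 200 pairs were thus missed. Recovery at the dispersions and read counts of the 582 pairs was not tested.

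The 3 libraries of acinus-2 pnn lay outside the range of the 3 WT libraries in 71 of the 582 pairs (12.2%), the same share as over all pairs (12.2%). The acinus-2 pnn libraries were above WT in 31 pairs, against 6.18% of all pairs, and below in 40, against 6%. Among the 467 pairs with 10 or more reads in each library, the mean share differed by at most 5 points in 332 and by more than 10 points in 37. It was higher in acinus-2 pnn in 218 and lower in 249.

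**Figure D3:**
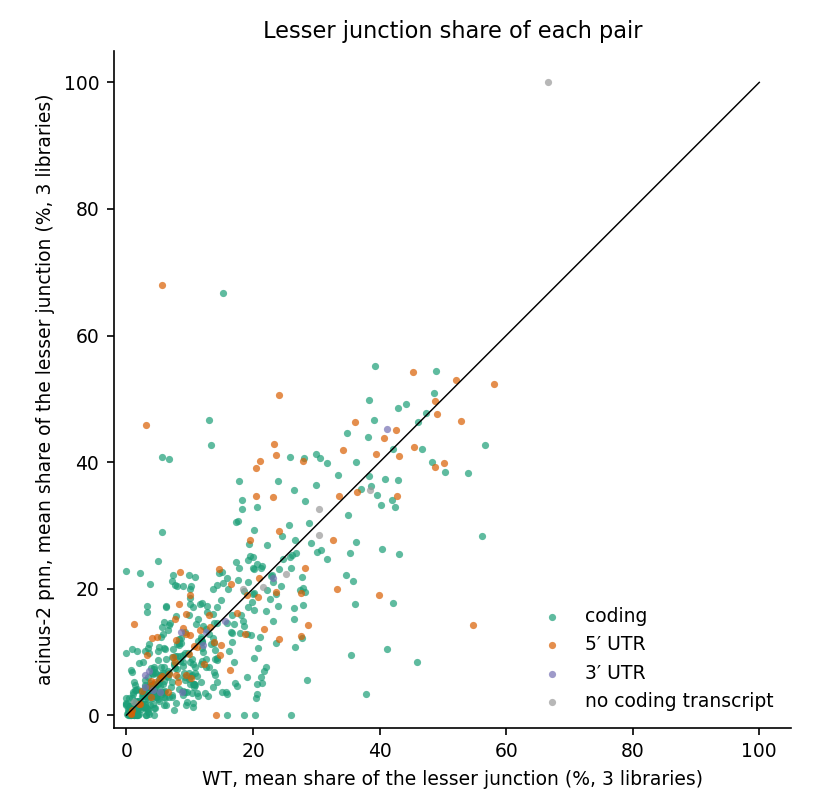
Mean share of the lesser junction over the 3 acinus-2 pnn libraries (vertical axis, percent) against that over the 3 WT libraries (horizontal axis, percent), 1 point for each of the 580 pairs with reads in both genotypes, coloured by region, with the line of equal shares. The points lie on both sides of the line, and 332 of the 467 pairs with 10 or more reads in each library differ by at most 5 points.

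The pairs with the most lesser reads show how closely the libraries can repeat. In 5 of the 6 both junctions are annotated and lie in the 5′ UTR. AT2G19730, which encodes a ribosomal L28e family protein, had 221, 185 and 230 reads on the upstream acceptor in acinus-2 pnn and 171, 219 and 230 in WT. That was 42.9, 40.2 and 39.7% of the reads in acinus-2 pnn and 46.8, 40.5 and 41.8% in WT. The genotypes overlapped, with means of 41.0 ± 1.7% and 43.1 ± 3.4% (SD, n = 3 each) in acinus-2 pnn and WT.

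AT1G69510, which encodes a protein related to cAMP-regulated phosphoprotein 19, used its upstream acceptor in 35.7, 37.8 and 32.2% of reads in acinus-2 pnn and 35.5, 37.2 and 36.5% in WT. PGLCT, the glucose transporter of the chloroplast envelope, used its downstream acceptor in 38.4, 51.2 and 42.01% in acinus-2 pnn and 38.6, 42.3 and 41.3% in WT. AGT, the serine:glyoxylate aminotransferase of photorespiration, used its downstream acceptor in 20.4, 21.1 and 23.6% in acinus-2 pnn and 21.8, 20.7 and 20.2% in WT. In these 3 genes the genotypes overlapped and the unadjusted edgeR p was between 0.686 and 0.936. AT5G46430, which encodes ribosomal protein L32e, used its upstream acceptor in 8.2, 8.9 and 8.2% in acinus-2 pnn and 8.1, 7.4 and 7.3% in WT. There the genotypes did not overlap, with means of 8.42 ± 0.40% in acinus-2 pnn and 7.62 ± 0.44% in WT (SD, n = 3 each, exact permutation p = 0.1, the smallest that 3 against 3 libraries allow). The adjusted edgeR p was 0.996.

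RBCS1A, a small subunit of Rubisco, is the sixth, and it differs from the others in how its reads lie. Its GC donor 4 bases upstream had 170, 0 and 243 reads in acinus-2 pnn and 204, 243 and 275 in WT, against 18963 to 27679 reads per library on the GT donor. Of the 1135 lesser reads, 24 (2.11%) reached 8 or more bases into both exons, and the share was 0.99 ± 0.04% in WT and 0.61 ± 0.53% in acinus-2 pnn (SD, n = 3 each). A read that covers only a few bases beyond a junction can match either of 2 sites that lie close together. In 48 of the 582 pairs fewer than 50% of the lesser reads reached 8 bases on both sides, and in 13 pairs 1 library held 80% or more of the lesser reads. Part of this applies to the lowest shares among deep pairs. PSBP-1, a subunit of the oxygen-evolving complex, had all 52 of its lesser reads in WT replicate 4, of which 1 reached 8 bases on both sides. APE2, the triose phosphate translocator, had all 13 in the same library. CA2, a carbonic anhydrase, by contrast had 3, 5 and 4 lesser reads in acinus-2 pnn and 3, 2 and 2 in WT, and 18 of these 19 reached 8 bases on both sides. TGG1, a myrosinase that splits glucosinolates (AT5G26000, chosen after its values were seen), had 0, 8 and 0 lesser reads in acinus-2 pnn and 12, 24 and 0 in WT, and its other acceptor had 0 reads in every library but WT replicate 5, which had 132. No library had reads on both of its junctions.

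**Figure D4:**
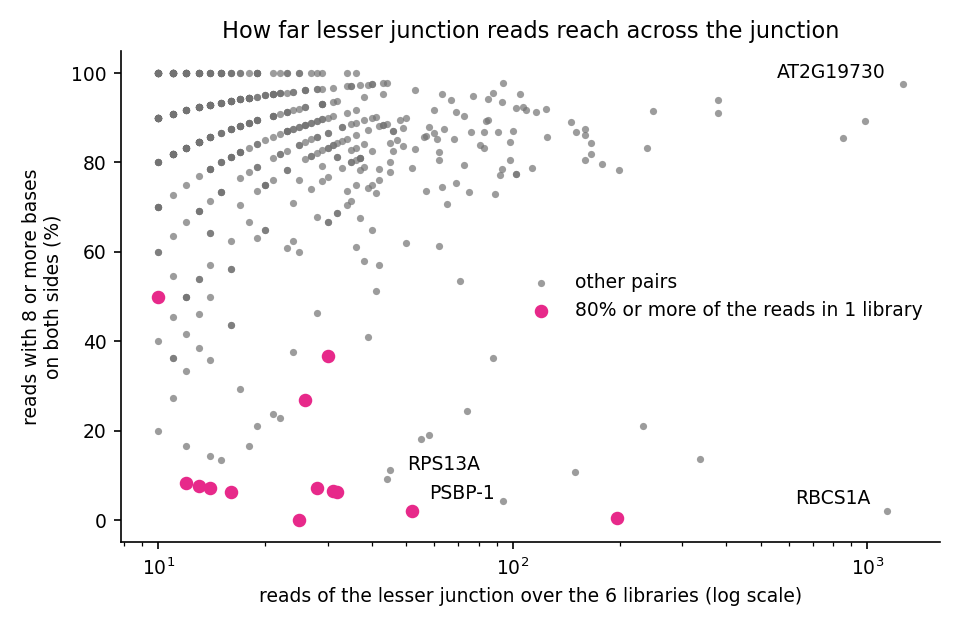
Percent of lesser junction reads that reach 8 or more bases into both exons (vertical axis) against the number of lesser reads over the 6 libraries (horizontal axis, log scale), 1 point for each of the 582 pairs, with the 13 pairs that have 80% or more of these reads in 1 library in pink. Most pairs lie above 50%, and 48, among them RBCS1A, PSBP-1 and RPS13A, lie below.

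RPS13A encodes ribosomal protein S13 and is outside the rule for naming pairs, so it was chosen after its values were seen. Its acceptor 4 bases downstream had 14, 9 and 22 reads in acinus-2 pnn and 0, 0 and 0 in WT. The other junction had 861, 750 and 959 reads in acinus-2 pnn and 749, 836 and 932 in WT. In WT, 0 of 2517 reads allows a share of up to 0.119% (3 counts over the genotype, counting error only). The 45 of 2615 reads in acinus-2 pnn, taken as exact, were 14.4-fold higher as a share than that limit. This ratio leaves out their counting error and the spread between libraries. DESeq2 gave an adjusted p of 0.00409 and edgeR 0.693, and Fisher's exact test was under 0.05 in all 9 comparisons (as in 0.439% of all pairs), but the share in acinus-2 pnn, 1.68 ± 0.53% (SD, n = 3), was below the 5% that the study's rule asks for. Of the 45 reads, 5 (11.1%) reached 8 bases on both sides, 1, 1 and 3 in the acinus-2 pnn libraries, and with only such reads the difference was 0.199 points. The lesser form would encode 43 residues in place of 151.

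Among pairs with 10 or more reads in each library, the highest shares were near 50%. SNL2, a SIN3-like corepressor of transcription, used its downstream acceptor in 9 of 13, 12 of 18 and 9 of 39 reads in acinus-2 pnn and 6 of 12, 19 of 25 and 7 of 23 in WT. CLC-D, a chloride channel of the Golgi network, used its downstream donor in 10 of 16, 8 of 11 and 7 of 25 reads in acinus-2 pnn and 17 of 25, 13 of 26 and 6 of 21 in WT. In both genes replicate 12 of acinus-2 pnn and replicate 5 of WT were the lowest of their genotype, at 23.1 and 30.4% for SNL2 and 28 and 28.6% for CLC-D. AT2G15580, a RING/U-box protein, was even across the libraries, with 54.2, 50.9 and 47.5% in acinus-2 pnn and 45.5, 48.6 and 51.6% in WT. Both of its forms are annotated, and they encode 130 residues with the other and 196 with the lesser junction.

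Among pairs with 10 or more reads in each library whose genotypes did not overlap, the 6 largest rises and falls of the share are described next. They were picked for their differences. Each has an exact permutation p of 0.1, the smallest that 3 against 3 libraries allow, and an adjusted edgeR p between 0.762 and 0.891, so none passed the test. The lesser junction was not annotated in any of the 12.

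PHS1, an enzyme of riboflavin synthesis, had the largest difference downward. Its acceptor 5 bases upstream took 4 of 11, 2 of 13 and 5 of 15 reads in acinus-2 pnn and 7 of 11, 16 of 25 and 9 of 22 in WT. The share averaged 28.4 ± 11.3% in acinus-2 pnn and 56.2 ± 13.2% in WT (SD, n = 3 each), with the highest acinus-2 pnn library at 36.4% and the lowest WT library at 40.9%. The lesser form has a stop after 130 of 599 residues.

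KEA6, a potassium efflux antiporter, had 0, 0 and 0 lesser reads in acinus-2 pnn and 3, 5 and 5 in WT. The 0 of 44 reads in acinus-2 pnn allow a share of up to 6.82%. That limit is 2.69-fold lower than the 13 of 71 reads in WT (18.3%), and 6 of those 13 reached 8 bases on both sides. NET1D, an actin-binding protein of the NETWORKED family, had 0 of 62 reads on its downstream acceptor in acinus-2 pnn, which allows up to 4.84%. That limit is 3.02-fold lower than the 12 of 82 reads in WT (14.6%). The NET1D pair lies in the 5′ UTR. Both ratios take the WT share as exact, without its counting error or the spread between libraries.

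The other 3 falls among the 12 were in AT5G41760, AT4G31115 and GCP1. AT5G41760, a nucleotide-sugar transporter family protein, averaged 7.02 ± 7.44% in acinus-2 pnn and 21.7 ± 6.3% in WT for its downstream donor (SD, n = 3 each). AT4G31115, a protein with a domain of unknown function, averaged 11.4 ± 9.8% in acinus-2 pnn and 23.7 ± 5.2% in WT for its upstream acceptor, a difference of -12.3 points that was -6.66 points without acinus-2 pnn replicate 6. GCP1, a glycoprotease, averaged 3.61 ± 3.13% in acinus-2 pnn and 15.1 ± 2.7% in WT for its downstream acceptor. The closest libraries of the genotypes differed by less than 1 point in AT5G41760 (14.8% in acinus-2 pnn replicate 12 and 15.4% in WT replicate 4) and in AT4G31115 (17.4% in acinus-2 pnn replicate 12 and 18.2% in WT replicate 2).

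AT4G30690, a translation initiation factor 3 protein, had the largest difference upward, and it is the only one of the 12 whose RNA level passed the thresholds given below for genes. Its downstream acceptor took 5 of 26, 3 of 11 and 6 of 30 reads in acinus-2 pnn and 3 of 42, 6 of 86 and 7 of 87 in WT. The share averaged 22.2 ± 4.4% in acinus-2 pnn and 7.39 ± 0.58% in WT (SD, n = 3 each), a log2 ratio of 1.74 ± 0.50 (SE, unadjusted p = 0.00833 and adjusted p = 0.762 in edgeR). The counts of the lesser junction were alike in the genotypes and those of the other junction were lower in acinus-2 pnn, with 21, 8 and 24 reads against 39, 80 and 80 in WT. The gene itself had 10.5, 9.998 and 12.5 CPM (counts scaled to the size of the library) in acinus-2 pnn and 29.1, 28.2 and 28.1 CPM in WT (log2 fold change -1.37 ± 0.08 SE, adjusted p = 1.19e-07 in edgeR).

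The remaining 5 rises were on few reads. ISA3, a debranching enzyme of starch breakdown, used its upstream acceptor in 3 of 16, 2 of 19 and 7 of 31 reads in acinus-2 pnn and 0 of 12, 2 of 21 and 0 of 25 in WT. EDD1, the glycyl-tRNA synthetase of organelles, had 3, 8 and 6 lesser reads in acinus-2 pnn and 1, 0 and 0 in WT, with shares of 10.5 ± 6.4% in acinus-2 pnn and 0.85 ± 1.48% in WT (SD, n = 3 each). That difference was 9.66 points, and 6.03 points without acinus-2 pnn replicate 7. AT5G49840, annotated as an ATP-dependent Clp protease, averaged 20.6 ± 2.7% in acinus-2 pnn and 7.61 ± 6.68% in WT. AT2G28320, a protein with pleckstrin homology and START domains, averaged 30.6 ± 1.4% in acinus-2 pnn and 17.3 ± 4.2% in WT for its downstream donor. AT1G47278, an uncharacterised protein with its pair in the 5′ UTR, averaged 14.3 ± 6.7% in acinus-2 pnn and 1.15 ± 1.99% in WT. The lesser junctions of these 5 pairs had between 14 and 39 reads in all 6 libraries together.

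**Figure D5:**
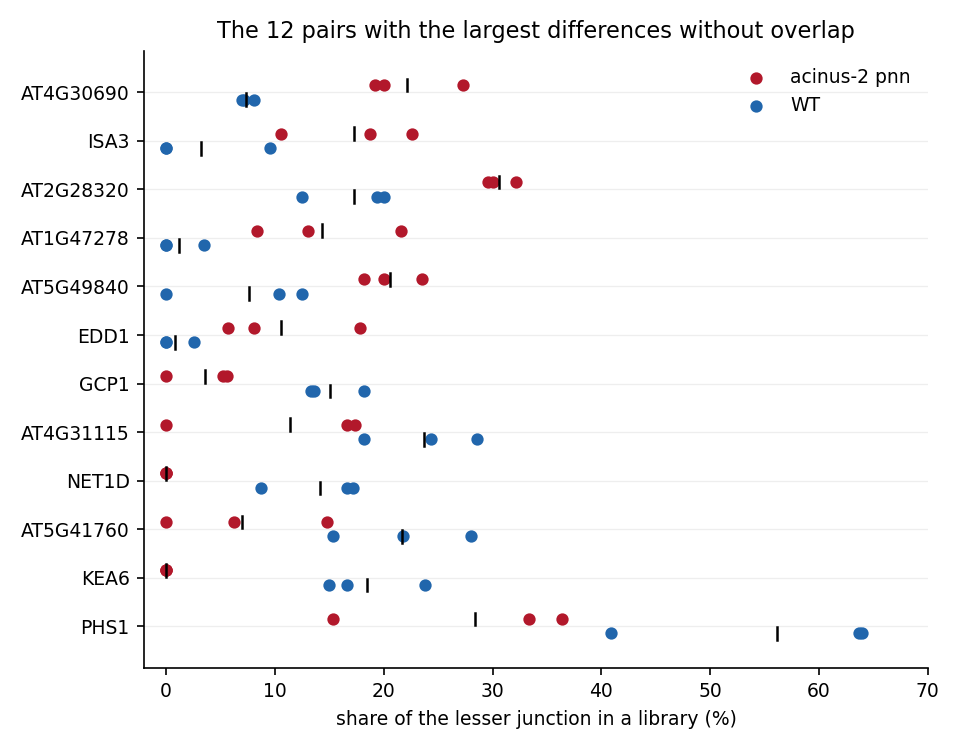
Share of the lesser junction in each library (horizontal axis, percent) for the 6 largest rises and 6 largest falls among pairs whose genotypes did not overlap (rows), with acinus-2 pnn in red above WT in blue and the mean of each genotype as a black tick. PHS1 is the lowest row, with acinus-2 pnn at 28.4% and WT at 56.2%, and none of the 12 passed the adjusted test.

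AT4G38950, a microtubule motor protein and the gene with 3 pairs, was chosen after its values were seen. All 3 pairs are coding acceptors with the lesser site downstream. The lesser junctions had 0, 0 and 1, then 0, 0 and 0, then 0, 1 and 0 reads in acinus-2 pnn, and 6, 2 and 5, then 4, 7 and 9, then 6, 8 and 2 reads in WT. Together that was 2 of 79 reads in acinus-2 pnn and 49 of 352 in WT. The unadjusted edgeR p of the 3 pairs was 0.171, 0.0248 and 0.194. The RNA of the gene was lower as well, with 16.4, 11.8 and 15.5 CPM in acinus-2 pnn and 59.7, 59.6 and 52.7 CPM in WT (log2 fold change -1.97 ± 0.10 SE, adjusted p = 3.4e-08 in edgeR), so fewer reads were available in acinus-2 pnn. The 3 pairs come from one RNA and are not independent.

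The rule did not use the difference in RNA level between the genotypes, but its read minimums favour genes with more RNA, so the genes with a pair are not a like sample of all genes. Of the 552 genes with a pair, 4 were higher and 14 lower in acinus-2 pnn at an adjusted p under 0.02 and a fold above 2 (edgeR), 18 genes or 3.26%. Of the 20962 genes tested, 4.29% were higher and 4.88% lower, 9.17% in all. At an adjusted p under 0.05 with no threshold on the fold, 78 of the 552 (14.1%) were higher and 194 (35.1%) lower, against 22.5% higher and 23.6% lower of all genes tested. The median log2 fold change was -0.08 over the genes with a pair and 0.00 over all genes. Besides AT4G30690 and AT4G38950, the genes that fell included AGL24, a MADS-box regulator of flowering (log2 fold change -1.50 ± 0.11), and SAMC1, the S-adenosylmethionine carrier of plastids (-1.46 ± 0.08). The 4 that rose were AT3G49400 (2.68 ± 0.10), AT5G44572 (2.538 ± 0.082), FRO3, a ferric reduction oxidase (1.27 ± 0.10), and LOB, a regulator of organ boundaries (1.24 ± 0.17, SE throughout, n = 3 libraries per genotype).

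Retention of the introns that hold the pairs was compared in the same way, and the read minimum on introns limits it to genes with more reads. Of 277 introns with enough reads, 2 were retained more in acinus-2 pnn (0.722%, against 0.861% of the 25428 introns tested) and 0 less (against 0.142%), by edgeR at an adjusted p under 0.05 and a fold above 2. At an unadjusted p under 0.05, 16 were higher (5.78%, against 6.08% of all introns tested) and 15 lower (5.42%, against 4.88%). AT3G27340, a Myb domain protein, had 24.2, 27.7 and 25.9 intron reads per 100 reads on the neighbouring exons in acinus-2 pnn and 6.04, 8.38 and 10.11 in WT (log2 fold change 1.63 ± 0.33 SE, adjusted p = 0.00288). AT2G39130, an amino acid transporter family protein, had 35.3, 55.6 and 52.8 in acinus-2 pnn and 4.0, 8.57 and 4.17 in WT, on 1 to 3 intron reads per WT library (2.90 ± 0.62, adjusted p = 0.00453). DESeq2 called neither. In AT3G27340 the lesser donor, 5 bases into the exon, had a share of 42.1 ± 2.9% in acinus-2 pnn and 42.1 ± 5.4% in WT (SD, n = 3 each).

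The genes that recognise splice sites were followed as a list. At an adjusted p under 0.02 and a fold above 2, 0 of 10 U1 snRNP genes, 0 of 5 genes for U2AF and the branch point, 0 of 6 second-step genes, 0 of 5 nonsense-mediated decay genes and 0 of 2 partners, SR45 and SAP18, changed in RNA level. Their log2 fold changes lay between -0.36 (U1-70K, which binds the donor as part of U1 snRNP) and 0.41 (SUS2, the plant Prp8). Of these 28 genes, 9 were higher and 3 lower at an unadjusted p under 0.05 in edgeR, where 26% of all genes were higher and 27% lower. Without a threshold on the fold, at an adjusted p under 0.05, 3 U1 genes were lower and 1 higher, and 5 genes of the U2AF, second-step and decay lists were higher, against the shares of 22.5% and 23.6% of all genes given above. None of these genes held a pair. All of these values are RNA levels. By targeted mass spectrometry, the study found SR45 and SAP18 protein strongly reduced in the double mutant.

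The libraries held 18890178 to 27622690 reads on genes, and 4295447 to 6218444 reads spliced between exons. AtACINUS had 33.8 to 34.6 CPM in acinus-2 pnn and 94.4 to 102 CPM in WT, with at most 1 read in each of its exons 1 to 3 in genomic order, downstream of the insertion, in every acinus-2 pnn library. AtPININ had 78.9 to 99.7 CPM in acinus-2 pnn and 45.7 to 52.9 CPM in WT, with fewer reads than WT, summed over the libraries, in exons 4 to 11 in genomic order and more in exons 1 to 3. Markers of green tissue were high in all libraries and flower markers were under 0.25 CPM. The green markers RBCS1A, LHCB1.3 and CA1 were lower in acinus-2 pnn, with CA1 at 800 to 891 CPM against 1604 to 1818 CPM in WT. The root markers were lower as well, with NRT2.1 at 0.43 to 0.95 CPM in acinus-2 pnn and 1.16 to 2.07 CPM in WT. PHT1;1 had 37.6 to 41.55 and 43.4 to 67.55 CPM, and SCR 24.1 to 28.19 and 28.45 to 31.4 CPM. Whether tissue make-up differed was not tested. The seed storage gene CRA1 had 12.5 CPM in acinus-2 pnn replicate 12 and at most 0.24 CPM in the other libraries, and its part in the results was not tested.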

How the data were processed

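RNA-seq reads of 101 bases from 3 acinus-2 pnn and 3 WT seedling libraries (NEBNext kit) had been mapped to TAIR10 and counted per gene, exon, intron and junction by the authors with RACKJ, and which mapping fed RACKJ is not given in the sources used here. The authors' junction table holds read counts per junction, with the end of each junction as an offset from an exon of the gene model and the position of the junction in its reads as a list of other values. The deposited gene, exon and intron tables hold expected counts (reads shared between places count in part) and RPKM values, and RPKM was not used. The study removed PCR duplicates for its gene counts, whether also for RACKJ is not given. The submitters' notes name STAR and DESeq2.

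Junctions were paired as described, placed on TAIR10.1 by exon order, and tested with edgeR 4.0.16 (quasi-likelihood, 1 term per library and an interaction of junction with genotype, over all 3415 pairs). DESeq2 1.42.0 and Fisher's exact test (scipy) were alternatives. Genes were tested in edgeR on rounded expected counts (TMM), and introns (10 or more reads) against the neighbouring exons. Reading frames were translated from RefSeq transcripts with the junction replaced. Donor matrices covered 3 exon and 6 intron bases and acceptor matrices 20 intron and 3 exon bases. Library totals were 18890178 to 27622690 reads on genes. Pairs were named where edgeR or the study's Fisher rule called them, where they were among the 6 largest rises or falls without overlap (10 or more reads in each library), the 6 with the most lesser reads, or the 3 highest and 3 lowest shares (10 or more reads in each library). RPS13A, called by DESeq2, lies outside this rule. Members and lists were chosen with earlier results of these data known. The scripts were tested on simulated data. Intervals and floors cover counting error only.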

Additional observations from a re-analysis of the deposited data

How the results depend on the processing

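No paired analysis was possible because the genotypes share no replicate number. The count of 0 called pairs was the same with 20 and 60 reads, 5 and 30 reads, pairs up to 30 bases apart, robust fitting, pairs without a library that holds 80% or more of the lesser reads, and only reads with 8 bases on both sides (486 pairs, smallest adjusted p 0.400). The last 2 were chosen after seeing the data. Leaving out any library also gave 0 calls by edgeR and by the study's rule. DESeq2 called 1 pair (RPS13A) and 13 of all pairs, and an unadjusted p under 0.05 gave 22 pairs and 179 of all pairs. Fisher's exact test without thresholds called 1 pair, and on reads summed per genotype it called 43 (13 higher, 30 lower), against 11% of all pairs. Of the 43, 25 had fewer than 50% of lesser reads with 8 bases on both sides. That test ignores the spread between libraries. The difference of the median shares, -0.63 points, lay between -1.18 and -0.23 when a library was left out. Leaving a library out gave 18 to 19 genes with a changed RNA level and 2 introns with changed retention, and 272 genes (78 higher, 194 lower, against 22.5% and 23.6% of all genes) had an adjusted p under 0.05 without a threshold on the fold. DESeq2 called 0 introns, a minimum of 20 intron reads gave 5, and spliced reads as the reference gave 4. Of 175 alternatives for the shares of the 25 named pairs, 172 left the difference within 1 SD. That SD is wide where libraries scatter. In SNL2 the difference was 0.85 points, and between -10.0 and 15.8 points when a library was left out. In CLC-D it was 5.55 points, and between -4.59 and 18.8 points when a library was left out. With only reads of 8 bases on both sides the difference was 18.5 points in AT2G28320, -9.51 in KEA6 and 0.199 in RPS13A. The shares of pairs with few reads are limited by depth.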
